A study of Mus musculus with 8 samples.

Results

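A group of 10 inducible genes of intestinal antimicrobial defence was followed in the jejunal mucosa of mice that lack the short-chain fatty acid receptor FFA2 in adipocytes. The 10 genes were chosen by name: the C-type lectins Reg1, Reg3a, Reg3b and Reg3g, the serum amyloid A genes Saa1 and Saa2, the enzymes Nos2 and Duox2, the Duox2 maturation factor Duoxa2, and the iron-withholding protein Lcn2. All 10 were found among the 56980 gene identifiers counted. Of them, 7 passed the filter on low counts (at least 10 counts in at least 4 libraries) and were among the 15986 genes tested. Saa1, Saa2 and Lcn2 did not pass.

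The data were read counts per gene from bulk RNA sequencing of scraped mucosa, with 4 FFA2 fl/fl and 4 Adipoq-F2-KO libraries. All mice were male, carried the floxed FFA2 allele, and were littermates. Per the paper, the genotypes were housed together from birth until 12 weeks old, before the diet began. Whether they shared cages during the diet is not given there. The FFA2 fl/fl mice served as floxed controls (below, controls, with floxed 3 for the third of them), and the Adipoq-F2-KO mice are also called knockouts. The Adipoq-F2-KO mice additionally carried a Cre recombinase under the adiponectin promoter, which acts in fat cells, whereas the tissue sequenced was mucosa. From 12 weeks of age all mice ate a Western diet with 10% fructooligosaccharides (FOS) for 2 weeks in thermoneutral housing. No group on another diet and no Cre-positive group without the floxed allele was analysed here.

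The epithelium of the small intestine makes these genes in response to microbes and to cytokines. Interleukin-22, from innate lymphocytes and T cells, acts through the receptor subunit Il22ra1 and the transcription factor Stat3, and interleukin-17 and Toll-like receptors act through NF-κB and its cofactor Nfkbiz. Reg3b and Reg3g are secreted lectins that bind bacteria and keep them away from the epithelial surface. Duox2 releases hydrogen peroxide into the lumen and needs Duoxa2 to leave the endoplasmic reticulum, and Nos2 makes nitric oxide. Serum amyloid A proteins carry retinol, and Lcn2 binds bacterial siderophores.

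The start regions of 3 of the genes are shown, because Reg3b and Reg3g varied together across libraries and Duoxa2 was 1 of the 2 genes whose call depended on a single library. RefSeq windows from 250 bases before to 50 bases after the start (build GRCm38.p6) were matched for 9 of the 10 genes; the table held none for Nos2. Reg3b lies at chr6:78370635-78370934 on the plus strand, Reg3g at chr6:78468825-78469124 on the minus strand and Duoxa2 at chr2:122298650-122298949 on the plus strand. Capitals mark the longest run of letters shared by Reg3b and Reg3g, and the TATAAA motif in Duoxa2.

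Reg3b: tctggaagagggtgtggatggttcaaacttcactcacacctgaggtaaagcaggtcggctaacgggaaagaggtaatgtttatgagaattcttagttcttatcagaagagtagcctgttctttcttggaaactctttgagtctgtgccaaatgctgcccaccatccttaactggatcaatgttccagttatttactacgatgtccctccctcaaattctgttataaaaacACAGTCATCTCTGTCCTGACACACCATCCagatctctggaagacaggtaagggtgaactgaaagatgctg

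Reg3g: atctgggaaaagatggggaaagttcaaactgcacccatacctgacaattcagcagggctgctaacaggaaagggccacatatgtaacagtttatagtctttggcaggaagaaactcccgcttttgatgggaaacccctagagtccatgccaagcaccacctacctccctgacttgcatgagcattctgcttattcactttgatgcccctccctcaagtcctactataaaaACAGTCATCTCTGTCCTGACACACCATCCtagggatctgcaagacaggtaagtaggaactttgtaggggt

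Duoxa2: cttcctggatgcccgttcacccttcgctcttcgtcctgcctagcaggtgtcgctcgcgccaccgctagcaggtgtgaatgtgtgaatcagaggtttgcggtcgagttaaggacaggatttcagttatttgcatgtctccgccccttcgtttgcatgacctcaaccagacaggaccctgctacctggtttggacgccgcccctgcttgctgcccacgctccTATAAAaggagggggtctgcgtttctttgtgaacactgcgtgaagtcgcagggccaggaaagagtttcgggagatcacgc

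The Reg3b and Reg3g windows matched at 207 of 304 aligned positions (68.1%), with a shared run of 29 bases over the start of transcription. By the same alignment Reg3b and Reg3a matched at 47.5% and Reg3g and Reg3a at 52.1%. Saa1 and Saa2, neighbours on chromosome 7, matched at 95.3%. The Duox2 and Duoxa2 windows matched at 44.4%; these genes start 673 bases apart on opposite strands of chromosome 2. Over both strands, a STAT motif (TTCNNNGAA) was present at position -129 of Reg3b, counted from 0 at the start base, and in 8.33% of the 32544 windows of the table. An NF-κB motif, searched by its consensus, was present at position -123 of Reg3g and in 4.53% of all windows. TATAAA was present near -30 in Reg1 (-30), Reg3b (-29), Reg3g (-27) and Duoxa2 (-30), and anywhere in 13.6% of all windows. These matches describe letters and no binding was measured.

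The libraries held 6007654 to 21712776 counts, and 3 of them (floxed 3 and Adipoq-F2-KO 3 and 4) held fewer than 10000000. Enterocyte markers summed to between 893662 and 1016550 normalized counts in every library. Ffar2, the deleted gene, had at most 18 counts in any library (log2 fold change 0.18, SE 0.56, DESeq2 adjusted p = 1.00), which in tissue without many adipocytes does not check the deletion. Floxed library 3 stood apart. All 10 of 10 smooth muscle markers were highest in it, and they summed to 30427 normalized counts there against 3768 to 12587 in the other 7 libraries. Adipocyte markers summed to 1087 against 160 to 543, with 7 of 9 genes highest there. Distal small intestine markers summed to 9605 against 4392 to 7663, and the ileal bile acid binding protein Fabp6 had 250 raw counts in floxed 3, 70 in Adipoq-F2-KO 3 and 501 in Adipoq-F2-KO 4, against 1 to 5 in the other 5 libraries. Adipoq was likewise at 59, 27 and 12 counts in these 3 libraries and at 0 to 3 in the rest. The genotype differences of the 7 tested genes are therefore given with and without floxed 3, a choice made after its values were seen.

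**Figure D1:**
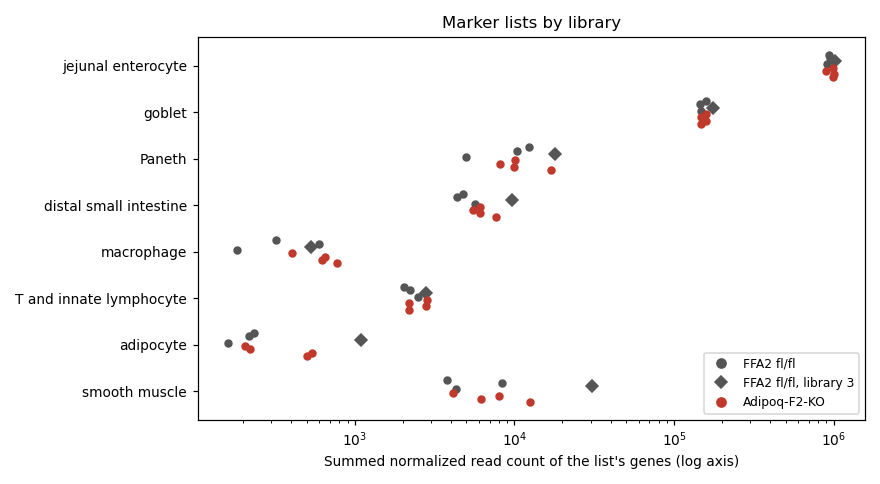
Summed normalized read counts of the genes of 8 marker lists (rows) on a log axis, 1 point per library; grey, FFA2 fl/fl; red, Adipoq-F2-KO; diamond, floxed library 3. Floxed 3 has the highest sum for smooth muscle (30427) and adipocyte markers (1087), whereas enterocyte sums lie close together.

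Nos2, which makes nitric oxide, and the oxidase pair Duox2 and Duoxa2 were higher in Adipoq-F2-KO mucosa than in 3 of the 4 controls but not than in floxed 3, and no difference in the lectins passed the test. With all 8 libraries, adjusted p-values below 0.05 were given by DESeq2 to 0 of the 7 genes and to 0.0375% of all tested genes. edgeR and limma-voom likewise called 0 of the 7 after adjustment. Unadjusted p-values below 0.05 were given by DESeq2 to 0 of the 7 (3.03% of all tested genes), with no p for Nos2, and by limma-voom to 1 (Duoxa2; 4.30% of all tested genes), and 0 of the 7 had genotypes that did not overlap (2.12% of all tested genes). Without floxed 3, 2 of the 7, Nos2 and Duoxa2, were called at an adjusted p below 0.05, where 0.644% of all tested genes were called in either direction and 0.332% as higher in Adipoq-F2-KO. Duox2 joined them at an unadjusted p below 0.05, so that 3 of the 7 passed (8.14% of all tested genes). The same 3 genes were higher in every Adipoq-F2-KO library than in all 3 remaining controls, as were 4.57% of all tested genes. In bulk tissue, fewer cells of a type and less RNA per cell cannot be told apart.

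**Figure D2:**
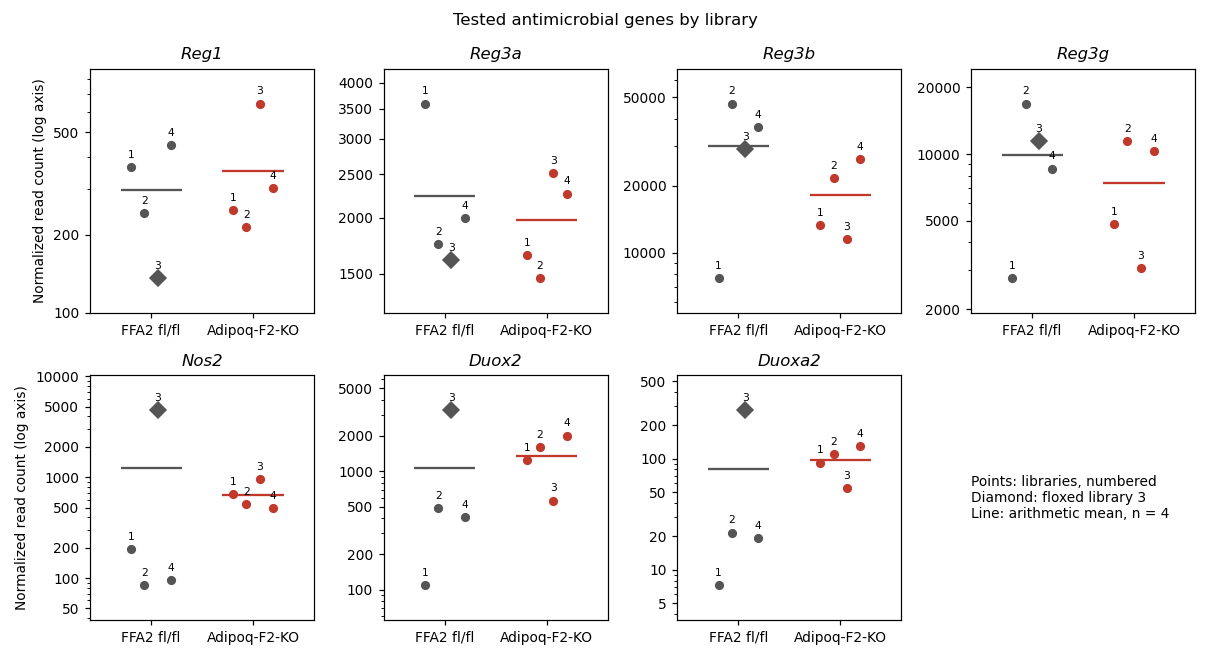
Normalized read count (log axis) of the 7 tested genes in each library, numbered 1 to 4 within genotype; lines are arithmetic means of 4 libraries and the diamond is floxed library 3. For Nos2, Duox2 and Duoxa2 floxed 3 is the highest of all libraries and the other 3 controls are the lowest, whereas for the 4 lectins the genotypes overlap with or without floxed 3.

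Reg3b, Reg3g and Reg3a were the most abundant of the 10 genes. Per kb of exon, the mean normalized count over the 8 libraries was 21145 ± 11740 (SD) for Reg3b, 4095 ± 2308 for Reg3g, 2550 ± 845 for Reg3a and 360 ± 177 for Reg1. Reg3g and Reg3a lay within their spread of each other. Nos2 (216 ± 340 per kb), Duox2 (178 ± 155) and Duoxa2 (55.4 ± 54.6) followed, and these neighbours also lay within their spread, as did Reg1 and Nos2. Saa1 (5.26 ± 7.39), Saa2 (1.32 ± 1.31) and Lcn2 (0.607 ± 0.795) were last. Floxed 3 alone held 1041 per kb of Nos2, 481 of Duox2 and 171 of Duoxa2, above its 150 of Reg1. Without floxed 3 the means were 98.6 ± 74.3 for Nos2, 135 ± 103 for Duox2, 38.9 ± 30.6 for Duoxa2 and 390 ± 168 for Reg1, so that Duox2 stood above Nos2, within their spread. Together the 4 lectins took 0.124% to 0.574% of all counts in the controls and 0.145% to 0.319% in the knockouts. The lectins form a gene family, so reads that fit more than 1 member may have been split or dropped by the counting.

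Reg3b (ENSMUSG00000071356, chromosome 6) was at 7665, 46812, 29193 and 36705 normalized counts in controls 1 to 4 and at 13263, 21674, 11490 and 26379 in knockouts 1 to 4. The lowest library of all was floxed 1 and the 3 highest were the other controls, so the genotypes overlapped through 1 library. The means were 30094 ± 16604 (SD, n = 4) and 18201 ± 7032 (n = 4), with a log2 fold change of -0.73 (SE 0.49, 95% interval -1.68 to 0.23, DESeq2 adjusted p = 1.00). Without floxed 3 the log2 fold change was -0.74 (DESeq2 adjusted p = 0.842). Without floxed 1 it was -1.04, with an unadjusted p of 1.4e-04 and a DESeq2 adjusted p of 0.272. Reg3b was lower in Adipoq-F2-KO in 21 of 21 alternative analyses (log2 fold change -1.19 to -0.43) and was called in 0 of them. These refit the same libraries or parts of them and are not independent. An exact two-sided permutation test of the log2 values gave p = 0.429 with all 8 libraries and p = 0.6 without floxed 3.

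Reg3g (ENSMUSG00000030017, chromosome 6), the lectin that acts on Gram-positive bacteria, was at 2752, 16892, 11416 and 8600 normalized counts in the controls and at 4820, 11392, 3059 and 10333 in the knockouts. Again floxed 1 was the lowest and floxed 2 the highest, and the genotypes overlapped over most of their range. Its log2 fold change was -0.42 (SE 0.64, 95% interval -1.68 to 0.84, DESeq2 adjusted p = 1.00), and -0.35 without floxed 3 (DESeq2 adjusted p = 0.961). It was below 0 in 21 of 21 alternatives, which again share their libraries, from -0.91 to -0.04.

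Reg3a (ENSMUSG00000079516, chromosome 6) was at 3593, 1745, 1610 and 1998 normalized counts in the controls and at 1650, 1464, 2509 and 2262 in the knockouts. Floxed 1, the lowest library for Reg3b and Reg3g, was the highest for Reg3a. For Reg3a the log2 fold change was -0.18 (SE 0.26, 95% interval -0.70 to 0.33, DESeq2 adjusted p = 1.00) and -0.31 without floxed 3 (DESeq2 adjusted p = 0.853). Reg1 (ENSMUSG00000059654, chromosome 6), a lectin known best from the pancreas and from regenerating epithelium, was at 367, 243, 136 and 445 normalized counts in the controls and at 249, 215, 645 and 303 in the knockouts. Floxed 3 was the lowest and Adipoq-F2-KO 3 the highest of the 8. Its log2 fold change was 0.23 (SE 0.39, 95% interval -0.53 to 0.99, DESeq2 adjusted p = 1.00) and 0.00 without floxed 3 (DESeq2 adjusted p = 1.00). Pancreatic markers summed to 32.0 to 46.0 normalized counts per library, and 10 of 13, among them Prss1 and Cpa1, had at most 3 counts in any library.

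Nos2 (ENSMUSG00000020826, chromosome 11), the inducible nitric oxide synthase, was at 195, 84.9, 4592 and 95.2 normalized counts in the controls and at 673, 541, 961 and 494 in the knockouts. Floxed 3 was the highest of all libraries and the other controls were the lowest, whereas the 4 knockouts lay within a factor of 1.94 of each other. The means were 1242 ± 2234 (SD, n = 4) and 668 ± 210 (n = 4), with a log2 fold change of -0.89 (SE 1.26, 95% interval -3.37 to 1.58). DESeq2 gave no p for Nos2 because a count was an outlier by Cook's distance, and without that filter the unadjusted p was 0.478. The direction with 8 libraries depended on the method, with 1.57 from limma-voom, which works on log values. An exact permutation test of the log2 values, two-sided over 70 regroupings, gave p = 0.486. Without floxed 3 the control mean was 125 ± 60.9 (n = 3) and Nos2 was higher in Adipoq-F2-KO by 5.33-fold (95% interval 3.55 to 8.00, log2 fold change 2.41, SE 0.30, DESeq2 adjusted p = 5.3e-12). On these 7 libraries the exact permutation test gave p = 0.0286, the smallest value that 35 regroupings allow. Floxed 3 was the only control above the knockouts, so leaving it out left every knockout above every control. The p-values, fold and interval without floxed 3 rest on that choice, made after its values were seen. edgeR gave an adjusted p of 0.159 and limma-voom 0.145 on the same 7 libraries, so the call was made by DESeq2 alone.

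Duox2 (ENSMUSG00000068452, chromosome 2), the hydrogen peroxide producing oxidase of the apical membrane, was at 110, 493, 3256 and 412 normalized counts in the controls and at 1235, 1595, 567 and 1998 in the knockouts. Floxed 3 was again the highest of all 8 and the other 3 controls were the lowest. For Duox2 the log2 fold change was 0.34 (SE 0.98, 95% interval -1.58 to 2.25, DESeq2 adjusted p = 1.00), against 1.47 from limma-voom (adjusted p = 0.974) and 0.95 with the smooth muscle covariate. Without floxed 3 it was 1.99 (SE 0.65, 95% interval 0.72 to 3.27), a 3.98-fold difference that did not pass the adjusted threshold (unadjusted p = 0.00222, DESeq2 adjusted p = 0.172). The exact permutation test gave p = 0.314 over 8 libraries and p = 0.0571 over 7. As for Nos2, the values over 7 libraries rest on leaving out the only control above the knockouts. Duox2 was called in 0 of 21 alternatives.

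Duoxa2 (ENSMUSG00000027225, chromosome 2) was at 7.27, 21.6, 272 and 19.3 normalized counts in the controls and at 92.4, 109, 54.1 and 130 in the knockouts. These values rest on few reads: the raw counts were 12, 41, 130 and 25 in the controls and 117, 176, 27 and 69 in the knockouts. The order of the 8 libraries was the same as for Duox2. For Duoxa2 the log2 fold change was 0.28 (SE 1.08, 95% interval -1.83 to 2.40, DESeq2 adjusted p = 1.00). With the same 8 libraries limma-voom gave 2.18 (unadjusted p = 0.00764, adjusted p = 0.974) and DESeq2 with the smooth muscle covariate 1.26 (adjusted p = 1.00), so the size depended on the method. Without floxed 3 the control mean was 16.1 ± 7.71 (n = 3) against 96.3 ± 32.0 (n = 4) in Adipoq-F2-KO, a 6.02-fold difference (95% interval 3.51 to 10.3, log2 fold change 2.59, SE 0.40, DESeq2 adjusted p = 3.7e-07). The exact permutation test gave p = 0.229 over 8 libraries and p = 0.0286 over 7. Here too the values over 7 libraries rest on leaving out the only control above the knockouts, a choice made after its values were seen. edgeR gave an adjusted p of 0.159 and limma-voom 0.145 without floxed 3. Duoxa2 overlaps Duoxa1 on the opposite strand in 1 pair of exons, and Duoxa1 had 53 counts in all 8 libraries together.

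**Figure D3:**
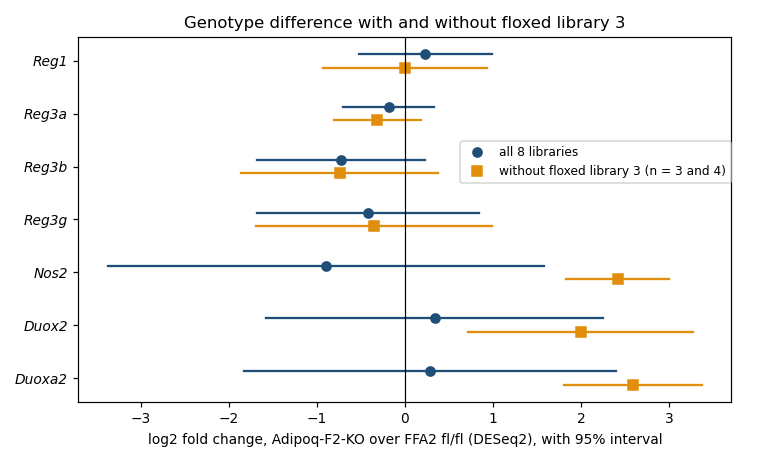
Log2 fold change (Adipoq-F2-KO over FFA2 fl/fl) with its 95% interval from DESeq2 for the 7 tested genes, with all 8 libraries (circles) and without floxed library 3 (squares, 3 against 4 libraries). Leaving out floxed 3 moves Nos2 from -0.89 to 2.41, Duox2 from 0.34 to 1.99 and Duoxa2 from 0.28 to 2.59, and moves each lectin by less than 0.3.

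Tissue markers also differed among the libraries. With the smooth muscle score (the mean of its 10 centred log2 values) as a covariate and without floxed 3, the log2 fold change of Nos2 was 2.75 (DESeq2 adjusted p = 1.0e-18), that of Duoxa2 2.35 (DESeq2 adjusted p = 2.7e-06) and that of Duox2 1.64 (DESeq2 adjusted p = 0.780). In the 5 libraries with over 10000000 counts (floxed 1, 2 and 4, Adipoq-F2-KO 1 and 2), Fabp6 had at most 5 counts and Adipoq at most 3. Within these, Nos2 was higher in Adipoq-F2-KO by 2.28 on the log2 scale (DESeq2 adjusted p = 3.5e-07), Duoxa2 by 2.65 (DESeq2 adjusted p = 1.5e-05) and Duox2 by 2.06 (DESeq2 adjusted p = 0.322). In the same fit Reg1 was at -0.60 (unadjusted p = 0.030, DESeq2 adjusted p = 0.596) and Reg3a at -0.66 (unadjusted p = 0.0267, DESeq2 adjusted p = 0.574), and 5.40% of all tested genes passed an unadjusted p below 0.05. This comparison holds 3 controls and 2 Adipoq-F2-KO libraries and also leaves out floxed 3. Without floxed 3, where the calls were made, the median log2 fold changes of the adipocyte, smooth muscle and distal lists were also above 0. Of the cell type lists, the adipocyte list alone held a called gene. Of the adipocyte markers 3 of 4 tested were higher at an unadjusted p below 0.05 and Cfd was called, with a median log2 fold change of 3.08. Of all tested genes, 4.38% were higher at that threshold and 0.332% were called as higher. The adipocyte sums were 543 and 500 in Adipoq-F2-KO 3 and 4. They were 204 and 219 in Adipoq-F2-KO 1 and 2, and 235, 216 and 160 in floxed 1, 2 and 4. Of the smooth muscle markers 9 of 10 had values above 0 (median 1.15, 0 at an unadjusted p below 0.05), and of the distal small intestine markers 6 of 6 (median 0.41, 3 at an unadjusted p below 0.05, 0 called). With all 8 libraries the medians of these lists were -0.26, -0.85 and -0.01. Without floxed 3, 2 of 9 Paneth, 2 of 12 lymphocyte and 1 of 7 goblet markers were also higher at an unadjusted p below 0.05. Of the proximal small intestine markers 1 of 6 was lower. Of the macrophage markers, 9 of 9 tested had log2 fold changes above 0 with all 8 libraries (median 0.61) and without floxed 3 (median 0.74), and their sum ranged from 183 to 596 in the controls and from 403 to 778 in Adipoq-F2-KO. None of these 9 was called. With all 8 libraries 1 was higher at an unadjusted p below 0.05, beside 1.65% of all tested genes. Without floxed 3, 2 were, beside 4.38%. Neutrophil markers were near the floor of 3 counts, with 8 of 11, among them S100a8, S100a9 and Ly6g, at or under it in every library. The part of tissue content in the Nos2, Duox2 and Duoxa2 values was not tested beyond these alternatives.

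Saa1 (ENSMUSG00000074115, chromosome 7), Saa2 (ENSMUSG00000057465, chromosome 7) and Lcn2 (ENSMUSG00000026822, chromosome 2) were barely detected. Saa1 had 1, 12, 19 and 0 raw counts in the controls and 6, 6, 2 and 24 in the knockouts. Saa2 had 2, 16, 1 and 0 counts and 4, 6, 4 and 0 counts. The genotypes overlapped for both, and the 2 genes are near copies whose reads the counting could split. Lcn2 had 3, 0, 3 and 0 counts in the controls and 1, 3, 1 and 0 in the knockouts, 11 in all and never above the floor of 3 counts, so a difference was not detectable at this depth. The floor of 3 counts equals 1.58 to 6.27 normalized counts, depending on the library. Intervals and floors cover counting error and library spread only, since no molecular identifiers were used.

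The 7 tested genes varied more between libraries of 1 genotype than most genes did. The SD of log2 values within genotype was 1.93 for Nos2, 1.58 for Duoxa2 and 1.53 for Duox2, against a median of 0.28 over all tested genes, and 0.851%, 1.76% and 1.93% of tested genes had a larger one. It was 1.02 for Reg3g, 0.92 for Reg3b, 0.73 for Reg1 and 0.45 for Reg3a, with 4.97%, 6.01%, 9.81% and 25.6% of tested genes above them. From the lowest to the highest library, Nos2 spanned 54.1-fold, Duoxa2 37.4-fold and Duox2 29.7-fold. These values rested on floxed 3. Without it the SD was 0.53 for Nos2, 0.65 for Duoxa2 and 0.97 for Duox2, against a median of 0.25, with 15.98%, 10.1% and 4.15% of tested genes above them, and the spans were 11.3-fold, 17.8-fold and 18.2-fold. Among the 4 Adipoq-F2-KO libraries alone the spans were 1.94-fold, 2.40-fold and 3.53-fold. Reg3g spanned 6.14-fold, Reg3b 6.11-fold, Reg1 4.74-fold and Reg3a 2.45-fold over the 8 libraries, and without floxed 3 the span of Reg1 was 3.01-fold and those of the other lectins were the same.

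The oxidase Duox2 and its maturation factor varied together across the libraries, as did the lectins Reg3b and Reg3g. Correlations of log2 values over the 8 libraries were computed for 21 pairs and 2 passed a Benjamini-Hochberg threshold of 0.05 on Pearson's r. Duox2 and Duoxa2 correlated at r = 0.977 (exact permutation p = 2.5e-05, adjusted 5.2e-04) and Spearman's rho = 1.00 (exact permutation p = 5.0e-05, adjusted 0.00104). Without the 2 libraries farthest from the Duox2 median (floxed 1 and 3) r was 0.947, and on deviations from the genotype means it was 0.974. Reg3b and Reg3g, whose windows are printed above, correlated at r = 0.929 (exact permutation p = 0.00154, adjusted 0.0161) and rho = 0.833 (exact permutation p = 0.0154, adjusted 0.108). Without the 2 farthest libraries (floxed 1 and Adipoq-F2-KO 3) r was 0.815, and on deviations from the genotype means 0.933. Leaving out each library in turn, Duox2 and Duoxa2 passed in 8 of 8 cases, whereas Reg3b and Reg3g passed in 3 of 8 (r = 0.889 to 0.966), with adjusted exact permutation p-values of 0.0667, 0.110 and 0.0542 without floxed 1, 2 and 3 and of 0.0722 and 0.0563 without Adipoq-F2-KO 1 and 3. Reg3a and Reg3g had r = -0.722 (exact permutation p = 0.039, adjusted 0.164) and rho = -0.690 (exact permutation p = 0.0694, adjusted 0.249). This pair did not pass, and its r rested on the 2 farthest libraries (r = -0.01 without them). Nos2 and Duoxa2 had r = 0.820 (exact permutation p = 0.013, adjusted 0.0908) and rho = 0.667 (exact permutation p = 0.0831, adjusted 0.249), and r = 0.724 without the 2 farthest libraries.

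**Figure D4:**
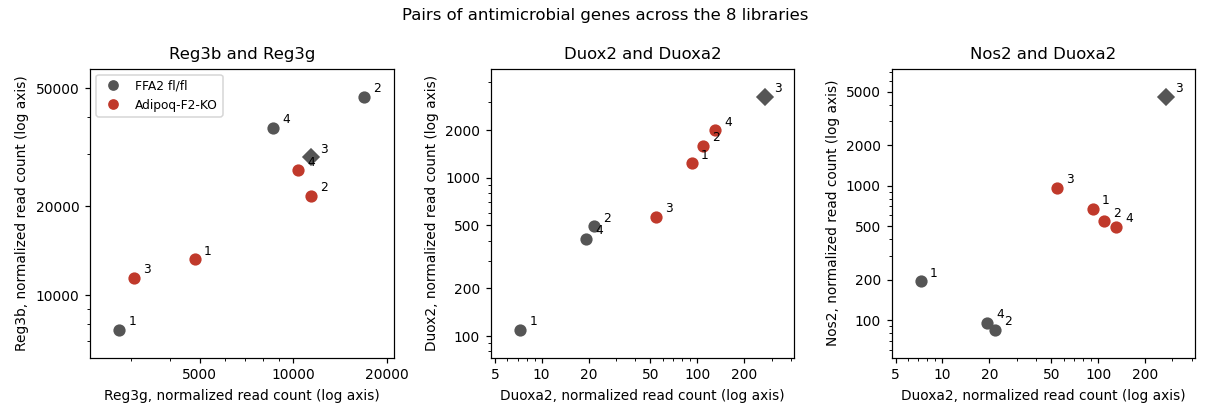
Normalized read counts (log axes) of Reg3b against Reg3g, Duox2 against Duoxa2 and Nos2 against Duoxa2, 1 point per library, numbered within genotype; grey, FFA2 fl/fl; red, Adipoq-F2-KO; diamond, floxed library 3. Duox2 and Duoxa2 rank the 8 libraries identically (rho = 1.00), and in the Nos2 panel the 4 Adipoq-F2-KO libraries lie between floxed 3 and the other controls.

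Ratios within a library do not depend on its scaling. The count of Reg3b over that of Reg3g was 1.90 to 4.27 (median 2.76), with means of 3.10 ± 0.79 (SD, n = 4) in the controls and 2.74 ± 0.77 (n = 4) in Adipoq-F2-KO (exact permutation test, two-sided, p = 0.400). Duox2 over Duoxa2 was 10.5 to 22.8 (median 14.9), with means of 17.8 ± 5.13 and 13.5 ± 2.16 (exact permutation test, p = 0.229). Reg3a over Reg1 was 3.89 to 11.8, with means of 8.33 ± 3.19 and 6.20 ± 1.58 (exact permutation test, p = 0.343). The 5 genes outside the group most like Reg3g, of 10164 compared over the 8 libraries, were Gm48745 (r = 0.976), Cdk17 (0.947), Esyt1 (0.930), Pym1 (0.906) and Epsti1 (0.904). They were picked as the highest of 10164 values over only 8 libraries. Whether their r exceeds what such a choice gives among unrelated genes was not tested. None of these 5 was called between genotypes. Their highest library was less than 2 times their lowest, a smaller span than that of Reg3g.

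Few of the cytokine, receptor and signalling genes upstream passed the test, and several of the cytokines were at the floor. Of 40 genes on the induction route, 29 were tested, and with all 8 libraries 1 higher and 0 lower gene passed an unadjusted p of 0.05 and 0 were called. Their median log2 fold change was 0.06, against -0.01 over all tested genes. Without floxed 3, 3 were higher (Il17re, Stat3 and Nfkbiz) and 0 lower, with Nfkbiz called, and the median was 0.14 against 0.01. Of all tested genes, 1.65% were higher at an unadjusted p below 0.05 with all 8 libraries, and 4.38% without floxed 3, where 0.332% were called as higher. Il22, Il17a and Il17f had 0 counts in every library, and Il6 had 1 count in all. A count of 0 allows up to 3 counts.

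Nfkbiz, the inducible cofactor of NF-κB that acts on antimicrobial genes, was at 935, 1020, 905 and 660 normalized counts in the controls and at 1206, 1233, 1420 and 1656 in the knockouts. All 4 Adipoq-F2-KO libraries lay above all 4 controls, and floxed 3 lay within the range of the other controls. The log2 fold change was 0.64 (SE 0.17, DESeq2 adjusted p = 0.127), 0.66 without floxed 3 (SE 0.18, DESeq2 adjusted p = 0.0329) and 0.72 without floxed 2 (DESeq2 adjusted p = 0.0419). Without any 1 of the other 6 libraries Nfkbiz was not called (DESeq2 adjusted p from 0.194 to 0.842), nor was it by edgeR on all 8 (adjusted p = 0.999). It was called in 3 of 21 alternatives, each time with a log2 fold change above 0, as in the other 18. Stat3 had a log2 fold change of 0.19 (SE 0.13) and of 0.30 without floxed 3 (SE 0.10, DESeq2 adjusted p = 0.167). Its feedback inhibitor Socs3 was at 580, 576, 780 and 647 in the controls and at 586, 1000, 561 and 2149 in the knockouts, so that Adipoq-F2-KO 4 was far above the rest (log2 fold change 0.73, SE 0.47, DESeq2 adjusted p = 1.00, 0.84 without floxed 3 and 0.15 without Adipoq-F2-KO 4). Myd88, the adaptor of Toll-like receptors, was at 183 to 198 in the controls and at 198 to 240 in Adipoq-F2-KO without overlap by a narrow margin (197.7 against 198.2, log2 fold change 0.21, SE 0.13, DESeq2 adjusted p = 1.00). The receptor subunits Il22ra1 (log2 fold change -0.18, SE 0.20) and Il17ra (-0.07, SE 0.14) and the epithelial cytokine Il18 (-0.21, SE 0.24) were not called.

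Among other inducible defence genes, 24 of 43 were tested. With all 8 libraries 2 were higher (Ido1 and Lyz2) and 0 lower at an unadjusted p below 0.05, and 0 were called, with a median log2 fold change of 0.17. Without floxed 3, 8 were higher (Ido1, Lyz2, Tifa, Pglyrp1, Ceacam1, Gsdmc2, Gsdmc3 and Gsdmc4) and 0 lower, with Ido1 called, and the median was 0.51 against 0.01 over all tested genes. These counts stand beside the same 1.65% and 4.38% of all tested genes. Ido1, which breaks down tryptophan, was at 157, 131, 387 and 153 normalized counts in the controls and at 424, 301, 378 and 218 in the knockouts. As with Nos2, floxed 3 was apart from the other controls. The log2 fold change of Ido1 was 0.70 (SE 0.34, DESeq2 adjusted p = 1.00), and 1.17 without floxed 3 (SE 0.22, DESeq2 adjusted p = 1.6e-04). Lyz2, which is also a macrophage marker, had a log2 fold change of 0.95 (SE 0.39, DESeq2 adjusted p = 1.00), and 1.12 without floxed 3 (DESeq2 adjusted p = 0.234). The fucosyltransferase Fut2, at most 26.3 normalized counts (log2 fold change 0.46, SE 0.40), and the immunoglobulin transporter Pigr, at 46120 to 62605 normalized counts (log2 fold change -0.01, SE 0.12), were not called. Of the 19 untested genes, 14 had at most 3 counts in any library, among them Retnlb, Reg2 and Saa3.

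Of 19 partners of the oxidases and of nitric oxide synthesis, 11 were tested. With all 8 libraries 0 passed an unadjusted p below 0.05 in either direction and the median log2 fold change was 0.12. Without floxed 3, 2 were higher at that threshold (Cyba and Rac2), beside 4.38% of all tested genes, and Cyba was called. Cyba, the membrane subunit of the NADPH oxidases of phagocytes and epithelium, was chosen after its values were seen. It was at 105, 165, 422 and 137 normalized counts in the controls and at 243, 240, 222 and 220 in the knockouts, again with floxed 3 above all others and the remaining controls below all Adipoq-F2-KO libraries. For Cyba the log2 fold change was 0.18 (SE 0.36, DESeq2 adjusted p = 1.00), and 0.77 without floxed 3 (SE 0.19, DESeq2 adjusted p = 0.0123). Without floxed 3 neither edgeR nor limma-voom called these 3 genes, with adjusted p-values from edgeR of 0.399 for Nfkbiz, 0.201 for Ido1 and 0.260 for Cyba. With the smooth muscle score as a covariate and without floxed 3, DESeq2 gave log2 fold changes of 0.50 for Nfkbiz (adjusted p = 0.448) and 0.69 for Cyba (adjusted p = 0.196), which ended both calls, and 1.38 for Ido1 (adjusted p = 8.8e-08). The paralogous pair Duox1 and Duoxa1 was close to the floor, with at most 13 and 14 raw counts in any library, and was not tested.

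In the other cell type lists, Cd4 of the T and innate lymphocyte list had a log2 fold change of 1.10 (SE 0.38, DESeq2 adjusted p = 0.976), and 1.09 without floxed 3 (DESeq2 adjusted p = 0.299). Osr2, named by rule from the distal list, had one of 0.31 (SE 0.14, DESeq2 adjusted p = 1.00), and 0.42 without floxed 3 (DESeq2 adjusted p = 0.106). Osr2 was called in 1 of 21 alternatives, the fit to the deep libraries alone (log2 fold change 0.52, DESeq2 adjusted p = 0.0417). Summed normalized counts lay between 2019 and 2824 for lymphocyte markers, between 4955 and 17877 for Paneth markers, between 144524 and 174742 for goblet markers, between 63281 and 94730 for proximal small intestine markers and between 10.5 and 36.3 for liver markers. The summed goblet, Paneth and distal markers were highest in floxed 3, and the liver markers were lowest there.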

How the data were processed

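RNA was taken from jejunal mucosal scrapings, with 4 FFA2 fl/fl and 4 Adipoq-F2-KO libraries. A stranded kit was used on polyadenylated RNA, with single reads of 75 bp. The authors trimmed reads with Trimmomatic, aligned them with STAR and counted them per gene with featureCounts. The deposited values are raw read counts per library, not normalized. Per the labels the build was GRCm38 (mm10). Software versions, the annotation release and the strand setting were not given in the sources used here, so overlapping genes are uncertain. Symbols came from GENCODE M21 and were found for 52125 of 56980 identifiers, including all 10 genes described.

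Groups came from the genotype labels. The labels number the libraries within genotype. They were taken as separate mice, and p-values measure the spread between these libraries. Genes reaching 10 counts in 4 or more libraries entered DESeq2 1.42.0 in R 4.3.3 (genotype as the only term, two-sided Wald test, Benjamini-Hochberg adjustment over 15986 genes, threshold 0.05). Counts were normalized with the size factors of DESeq2, and log2 values carry a prior of 1. Intervals are 95% Wald intervals. Alternatives were edgeR 4.0.16, limma 3.58.1 (voom), TMM scaling, other count filters, a replicate block, a smooth muscle score as a covariate, the deep libraries alone and leaving out each library. The smooth muscle score is the mean over the list of log2 values centred on the 8 libraries. Analyses without floxed 3 by other tools, levels and spread without it, and the outlier test on log2 values were added after seeing the data. The scripts were tested on simulated data.

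The 10 genes and all lists were chosen with earlier results of these data known. Named besides the 10 genes were 11 genes of the induction, defence and oxidase lists, fixed by name, up to 3 genes per list with the smallest unadjusted p below 0.05, and the 5 genes with a mean normalized count of at least 50 most correlated with Reg3g. Other genes named were chosen after their values were seen. Start regions were taken from RefSeq (GRCm38.p6) and aligned in pairs with biopython 1.88. The result for 1 gene is not reported here.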

Additional observations from a re-analysis of the deposited data

Results flagged for a closer look

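In the controls, floxed library 3 was far above the other 3 libraries for 3 of the 7 tested genes. The gap to the nearest control, as a share of the whole range of normalized counts, was 0.976 for Nos2, 0.878 for Duox2 and 0.946 for Duoxa2, each above Dixon's 95% critical value for 4 samples. Of 14 groups tested (7 genes in 2 genotypes), 3 passed. Chance passes about 1 in 20 for normally distributed values, which counts on a linear scale need not be. On the log2 scale the same gaps were 0.793, 0.557 and 0.712, and 0 of the 3 passed. The 3 are not independent, since the genes varied together and the library is the same. Floxed 3 also held the highest smooth muscle, adipocyte and distal small intestine marker sums, and their part in these values was not tested.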

How the results depend on the processing

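The count of genes called at an adjusted p below 0.05 was 6 with DESeq2 on all libraries, 2 with edgeR, 1 with limma-voom, 3 without a count filter, 11 with a replicate block and 78 in the 5 deep libraries. Leaving out 1 library gave 2 to 103. Without floxed 3, edgeR called 2 genes, limma-voom 1, DESeq2 with the smooth muscle covariate 46 and with TMM scaling 104. Of the 10 genes described, those with an unadjusted p below 0.05 numbered 0 in the design as reported, 1 with limma-voom (Duoxa2), 5 in the deep libraries, 0 to 3 without 1 library and 3 in each other analysis without floxed 3, beside 3.03%, 4.30%, 5.40%, 1.76% to 8.14% and 5.23% to 9.57% of all tested genes. Those with an adjusted p below 0.05 numbered 2 in the deep libraries (0.488% of all tested genes), 0 to 2 without 1 library (0.0125% to 0.644%), and 2 without floxed 3 with the covariate (0.288%) or TMM scaling (0.651%). Genes without overlap numbered 0 to 3 (3 without floxed 3, 1 without floxed 1), beside 2.12% of all tested genes with all libraries, 9.54% without floxed 3 and 3.70% without floxed 1, and passing correlations 1 to 2. Log2 fold changes without 1 library ranged from -0.23 to 0.49 for Reg1, -0.32 to 0.14 for Reg3a, -1.29 to 2.41 for Nos2 (above 0 without floxed 3 alone), -0.040 to 1.99 for Duox2, -0.10 to 2.59 for Duoxa2, -0.35 to 0.065 for Il18, -0.064 to 0.074 for Pigr and -0.037 to 0.77 for Cyba. Nos2 was 1.57 with limma-voom, 1.42 with the replicate block, 0.59 with the smooth muscle covariate and 2.28 in the deep libraries, where Reg1 was -0.60, Il22ra1 0.054 and Pigr 0.056. Without floxed 3, edgeR, limma-voom and TMM scaling gave 2.40, 2.44 and 2.41 for Nos2, -0.030, -0.20 and -0.0065 for Reg1, and 0.067, 0.061 and 0.067 for Pigr, and the covariate gave 2.75 for Nos2, 0.18 for Il22ra1 and 0.15 for Pigr. The causes of these shifts were not tested. The replicate numbers were not taken as pairs. The deviations of same-numbered libraries correlated at 0.542, 0.294, 0.0113 and -0.423. Differently numbered libraries were not compared, so these values cannot show whether the samples are paired. With the replicate block Duox2 was 1.54 and Duoxa2 1.96, and 0 of the 7 tested genes were called. Low counts kept Saa1, Saa2 and Lcn2 from being tested, and Duoxa2 rested on 12 to 176 raw counts per library.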
